A study of Rattus norvegicus with 24 samples.

Results

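Transcripts of T cells, B cells and natural killer (NK) cells were followed in rat lung as a set of 36 genes, chosen by gene symbol from the annotation of the array. Of these, 34 were found among 19239 features, and no feature carried the symbol Il2rb or Pax5. By role, 15 encode parts of the T cell receptor, its co-receptors and its signalling or T cell transcription factors, 3 encode cytokine or chemokine receptors of lymphocytes, 11 belong to the NK and cytotoxic program, and 5 mark B cells. Lung was taken from 24 adult male Wistar rats, 1 array per rat and 6 rats per group. All were anaesthetised with ketamine and xylazine and assigned to 6 h of ventilation. Brain damage (BD) was caused by a balloon catheter inflated in the epidural space through a burr hole. Rats without brain damage (NBD) had no such injury and no trepanation, so skull surgery and brain damage cannot be told apart. Ventilation was either high tidal volume (HT in the labels, HVT/LPEEP here, 12 mL/kg with low end-expiratory pressure) or best PEEP (LVT/OLPEEP here, 6 mL/kg with the pressure set to the lowest elastance). LVT/OLPEEP rats also had recruitment maneuvers, a stepwise pressure trial and a higher respiratory rate. These cannot be told apart from tidal volume and pressure. The groups were thus NBD LVT/OLPEEP, NBD HVT/LPEEP, BD LVT/OLPEEP and BD HVT/LPEEP. By the methods of the study, non-survivors were left out of the other groups. In BD HVT/LPEEP 2 rats were non-survivors, and the labels do not say which. In comparisons with that group, survival thus cannot be told apart from brain damage or from ventilation. The time of death of these 2 rats is not given, so they may have been ventilated for less than 6 h. No group was left unventilated.

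T cells recognise antigen through a receptor whose signal is carried by the CD3 chains and the kinases Lck and Zap70. Cytotoxic CD8 T cells and NK cells kill by releasing perforin, which opens a path into the target cell, and granzymes, which are proteases that start its death. The transcription factors T-bet (Tbx21) and eomesodermin (Eomes) direct this program together with interferon gamma (Ifng), and NK cells sense stressed cells through receptors such as NKG2D (Klrk1). B cells signal through an antigen receptor that contains Cd79a and Cd79b. The lung holds all of these cells in its vessels and its tissue. Since whole tissue was measured, fewer cells of a type and less RNA per cell cannot be told apart.

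In BD rats under HVT/LPEEP genes of the NK and cytotoxic program were among those of the 34 with the largest differences. The promoters of 3 of them, Gzmb, Prf1 and Klrk1, are shown, each as the 250 bases before the start of the gene. These 3 are a choice and not the top of a ranking, since Gzma, Tbx21 and Ms4a1 differed more than Prf1. Promoters were read from the RefSeq table for the build GRCr8. Capitals mark 3 motifs, searched on both strands: the T-box core TCACAC, which T-bet and eomesodermin can bind, the RUNX core TGTGGT, and the core TGACGT of the cyclic AMP response element (CRE). No capital stretch touches another.
Gzmb (chr15:34462470-34462719, minus strand): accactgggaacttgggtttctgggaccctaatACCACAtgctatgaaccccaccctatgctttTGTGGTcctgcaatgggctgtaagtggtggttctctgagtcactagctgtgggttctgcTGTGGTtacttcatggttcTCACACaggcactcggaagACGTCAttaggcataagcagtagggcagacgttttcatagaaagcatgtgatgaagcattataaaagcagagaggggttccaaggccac
Prf1 (chr20:29788790-29789039, plus strand): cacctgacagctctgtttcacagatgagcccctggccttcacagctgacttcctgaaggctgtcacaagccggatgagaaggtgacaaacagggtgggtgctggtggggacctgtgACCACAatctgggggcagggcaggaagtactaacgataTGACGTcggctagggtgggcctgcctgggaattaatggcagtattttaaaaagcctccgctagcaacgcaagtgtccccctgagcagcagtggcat
Klrk1 (chr4:164778383-164778632, minus strand): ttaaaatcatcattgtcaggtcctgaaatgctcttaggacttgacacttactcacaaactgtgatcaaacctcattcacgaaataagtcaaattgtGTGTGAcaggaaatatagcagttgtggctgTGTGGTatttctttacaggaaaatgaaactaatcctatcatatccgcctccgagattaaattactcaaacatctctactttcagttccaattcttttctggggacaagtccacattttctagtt
The Gzmb window held 3 RUNX cores, 1 T-box core and 1 CRE core. In Prf1 there were 1 RUNX core and 1 CRE core, and in Klrk1 1 RUNX core and 1 T-box core. Among 33469 rat promoter windows of this length, 14.5% held the RUNX core, 11.6% the T-box core and 6.95% the CRE core. A promoter was at hand for 26 of the 34 transcripts, and 8 of these were among the 9 transcripts called for brain damage under HVT/LPEEP. The RUNX core was in 4 of these 8 and in 7 of the other 18. The T-box core was in 2 of the 8 and in 6 of the 18, and the CRE core in 2 of the 8 and 2 of the 18. Of the 8, Tbx21, Ifng, Cd8a and Cd27 held none of these 3 cores. The AP-1 site TGANTCA was in 1 of the 8 and 1 of the 18 (6.34% of all windows), and the ETS core AGGAAG in 1 of the 8 and 13 of the 18 (29.5% of all windows). A match is a description of the letters and not of binding.

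Values are log2 expression as deposited, and each comparison is a difference of group means in 1 limma fit over all features and 24 arrays, with two-sided p-values adjusted by the Benjamini-Hochberg method and called under 0.05. The values of all arrays had the same distribution, from 5.73 to 14.53 with a median of 9.18. A transcript is described as higher or lower only where it was called. The number of arrays limits the precision. Correlations between arrays were 0.910 to 0.994, and the lowest mean correlations with the own group were 0.951 for NBD HVT/LPEEP rat 12 and 0.955 for BD LVT/OLPEEP rat 16 (rats are numbered as in the labels). In that BD LVT/OLPEEP rat, 12 skeletal muscle genes had a mean level 3.51 above the average of the 24 rats, and the range over the remaining rats was -0.30 to 0.18. Surfactant and other genes of alveolar type 2 cells, which mark lung tissue, had a mean level between 12.30 and 12.82 in every rat.

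The first comparison asked what brain damage did in lungs under HVT/LPEEP. Brain damage went with higher cytotoxic genes: Gzmb, Gzma, Prf1, Klrk1, Tbx21 and Ifng, with differences of 0.63 to 1.30 on the log2 scale. The T cell genes Cd8a and Cd27 and the B cell gene Ms4a1 were also higher. In all, 9 of 34 lymphocyte transcripts were higher and 0 were lower, whereas 5.90% of all features were higher and 8.50% lower in this comparison. The median difference was 0.31 for the lymphocyte transcripts and -0.01 for all features, and the mean was higher in BD for 32 of 34 transcripts and for 8817 of 19239 features. By role, 6 of 11 NK and cytotoxic genes, 2 of 15 T cell genes, 1 of 5 B cell genes and 0 of 3 receptors were called. Before adjustment 14 of 34 transcripts had a p under 0.05, as did 27.8% of all features. With the Holm correction, which the methods of the study name, 0 of 34 passed, beside 180 of all features.

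**Figure D1:**
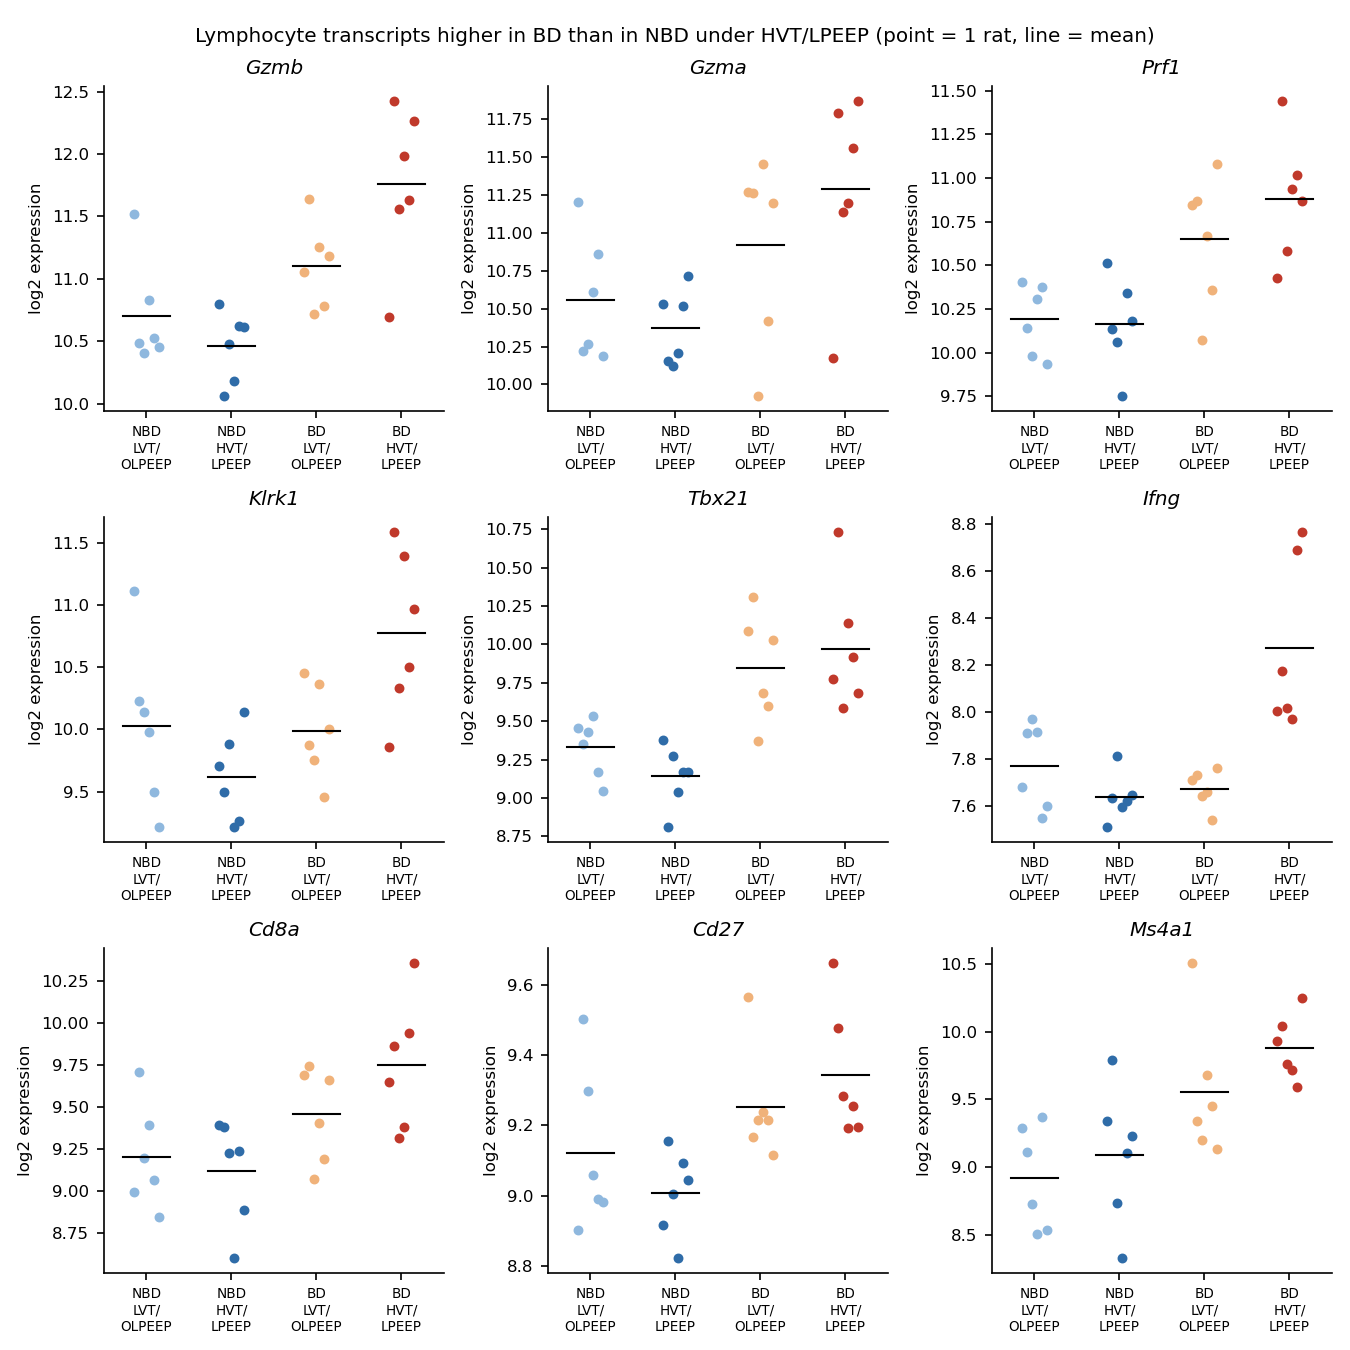
Log2 expression in each rat of the 9 lymphocyte transcripts called for brain damage under HVT/LPEEP. Each point is 1 rat, the line is the mean of 6 rats, and the vertical axes differ between panels and do not start at 0. For Tbx21, Ifng and Cd27 every BD HVT/LPEEP rat lies above every NBD HVT/LPEEP rat, and 1 BD HVT/LPEEP rat lies low for Gzmb and Gzma.

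Granzyme B (Gzmb) is the protease of cytotoxic granules that cleaves caspases in target cells. Its level was 10.06 to 10.80 (median 10.55) in NBD HVT/LPEEP and 10.69 to 12.43 (median 11.81) in BD HVT/LPEEP. All BD rats but rat 37 lay above every NBD rat. The difference was 1.30 (SE 0.24, 2.46-fold, limma adjusted p = 0.000933), with a 95% interval of 0.80 to 1.80. Granzyme A (Gzma), a granule protease of another specificity, reached 10.12 to 10.71 (median 10.36) in NBD and 10.18 to 11.87 (median 11.38) in BD. Again rat 37 alone lay within the NBD range, and the difference was 0.92 (SE 0.27, 1.89-fold, adjusted p = 0.0265). Perforin (Prf1) ran from 9.75 to 10.51 (median 10.16) in NBD and from 10.43 to 11.44 (median 10.90) in BD. Here too 5 of 6 BD rats were above all NBD rats, with a difference of 0.71 (SE 0.17, 1.64-fold, adjusted p = 0.0064). Granzyme K (Gzmk), typical of memory CD8 T cells, did not share this pattern and ranged over 9.33 to 10.03 in NBD and 9.46 to 10.20 in BD, a difference of 0.08 (SE 0.21) with an interval of -0.35 to 0.50. Granzymes b, c, f and n are near copies of each other, and probes can be shared between them: the differences of Gzmc, Gzmf and Gzmn were 0.49 (adjusted p = 0.0795), 0.06 and -0.05.

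Klrk1 encodes NKG2D, an activating receptor of NK and CD8 T cells. It ran from 9.22 to 10.14 (median 9.60) in NBD HVT/LPEEP and from 9.86 to 11.59 (median 10.73) in BD HVT/LPEEP. The groups overlapped by 1 BD rat, rat 37, and differed by 1.15 (SE 0.29, 2.23-fold, adjusted p = 0.0105). Other receptors of NK cells were less far apart. Klrd1 (CD94, the partner chain of the NKG2 receptors) differed by 0.57 (SE 0.20, adjusted p = 0.0611), with 4 of 6 BD rats above all NBD rats. Ncr1 (NKp46, a receptor that defines NK cells) ranged over 8.40 to 8.78 in NBD and 8.50 to 8.87 in BD and differed by 0.10 (SE 0.11) with an interval of -0.13 to 0.32. It was among the 40% dimmest features, and no signal over background was at hand. Nkg7, a protein of the granule membrane, differed by 0.44 (SE 0.19, adjusted p = 0.135).

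T-bet (Tbx21) was 8.81 to 9.38 (median 9.17) in NBD HVT/LPEEP and 9.59 to 10.73 (median 9.84) in BD HVT/LPEEP. No value of one group reached the other, and the difference was 0.83 (SE 0.17, 1.78-fold, adjusted p = 0.00208). Its relative Eomes differed by 0.37 (SE 0.14, adjusted p = 0.0685), with 4 of 6 BD rats above all NBD rats. Interferon gamma (Ifng), the cytokine that T-bet directs, was at 7.51 to 7.81 (median 7.63) in NBD and at 7.97 to 8.77 (median 8.10) in BD. These groups did not overlap either, with a difference of 0.63 (SE 0.12, 1.55-fold, adjusted p = 0.0010). Rats 22 and 24 had the highest Ifng of all, at 8.77 and 8.69. Ifng was among the 40% dimmest features, and no signal over background was at hand. Together with Cd27, 3 of 34 transcripts had every BD rat above every NBD rat, compared to 1.85% of all features.

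Among the T cell genes, Cd8a and Cd8b encode the 2 chains of the CD8 co-receptor. Cd8a was 8.60 to 9.39 (median 9.23) in NBD HVT/LPEEP and 9.31 to 10.36 (median 9.75) in BD HVT/LPEEP. With 4 of 6 BD rats above all NBD rats, it differed by 0.63 (SE 0.18, 1.55-fold, adjusted p = 0.0215). Cd8b overlapped almost fully, at 8.32 to 9.44 in NBD and 8.45 to 9.61 in BD (difference 0.08, SE 0.20, interval -0.34 to 0.50). The CD8 alpha chain is also made by rat NK cells, while the beta chain is a T cell chain. Cd27, a costimulatory receptor of T, NK and B cells, was 8.82 to 9.15 (median 9.02) in NBD and 9.19 to 9.66 (median 9.27) in BD. The groups did not overlap, yet the difference was small, at 0.34 (SE 0.10, 1.27-fold, adjusted p = 0.0264).

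The CD3 chains, present on all T cells, did not pass. Cd3e differed by 0.20 (SE 0.26), Cd3d by 0.31 (SE 0.23) and Cd3g by 0.26 (SE 0.27), and their intervals reached from -0.33 to 0.74, from -0.17 to 0.79 and from -0.29 to 0.82. Differences of this size lay within the spread between rats. The zeta chain Cd247, which NK cells use as well, differed by 0.36 (SE 0.14, adjusted p = 0.0909), and for the costimulatory receptor Cd28 the value was 0.44 (SE 0.15, adjusted p = 0.0564). Cd4, the co-receptor of helper T cells that rat macrophages also carry, had the lowest difference of the 34, at -0.38 (SE 0.28, adjusted p = 0.411). The other T cell genes, Cd2, Cd5, Cd6, Lck, Zap70 and Tcf7, had differences from 0.04 to 0.45.

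Ms4a1 (CD20, a surface protein of B cells) was 8.33 to 9.79 (median 9.16) in NBD HVT/LPEEP and 9.59 to 10.25 (median 9.84) in BD HVT/LPEEP. The groups overlapped, with 3 of 6 BD rats above all NBD rats, and the difference was 0.79 (SE 0.23, 1.73-fold, adjusted p = 0.0247). The other B cell genes were not called. Cd79a and Cd79b, the signalling chains of the B cell receptor, differed by 0.21 (SE 0.22) and 0.31 (SE 0.25), the inhibitory receptor Cd22 by 0.00 (SE 0.19) and the kinase Blk by -0.08 (SE 0.12). Among the receptors, Il7r, the receptor of the survival cytokine interleukin 7, differed by 0.30 (SE 0.26), the common gamma chain Il2rg by 0.20 (SE 0.15) and the chemokine receptor Cxcr6 by 0.06 (SE 0.24).

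**Figure D2:**
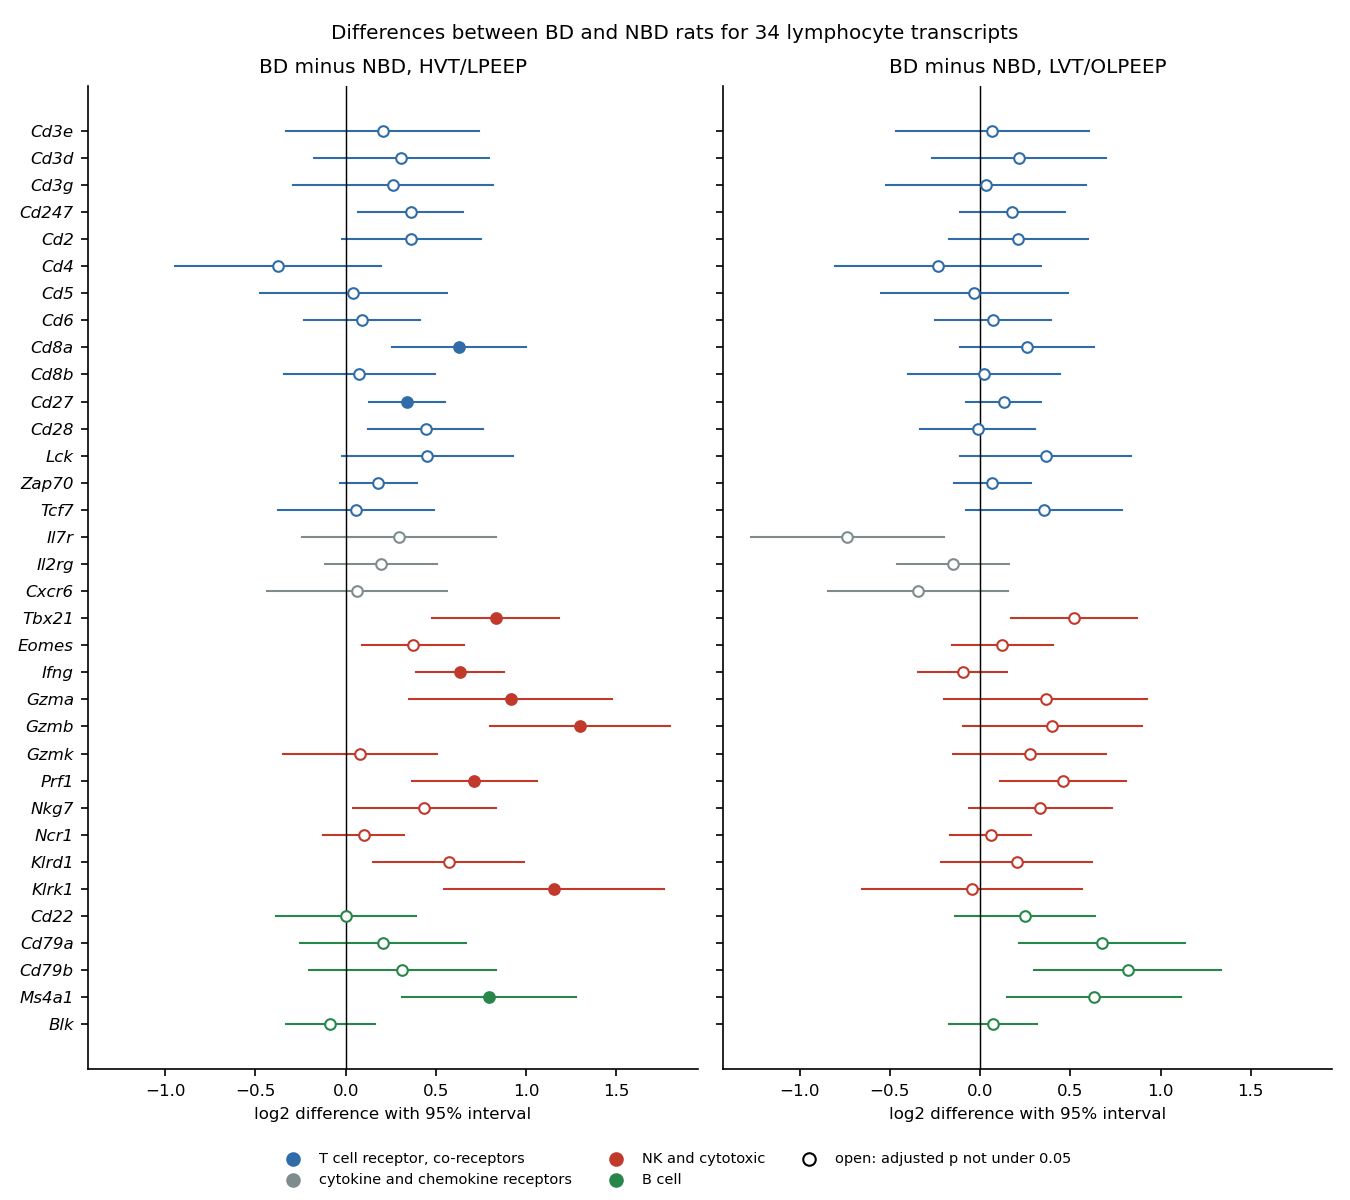
Difference in log2 expression between BD and NBD rats for the 34 lymphocyte transcripts, under HVT/LPEEP (left) and under LVT/OLPEEP (right), with 95% intervals from the limma fit and 6 rats per group. Filled points were called at an adjusted p under 0.05: 9 transcripts on the left, 6 of them NK and cytotoxic genes, and 0 on the right.

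The count of 9 depended on single rats. It was 5 without NBD HVT/LPEEP rat 19, where Cd8a, Cd27, Gzma and Ms4a1 were lost, 6 without BD HVT/LPEEP rat 11 or rat 22, and up to 11 without BD HVT/LPEEP rat 28, where Cd247 and Eomes were added. Over all features the calls were 2771 with every rat and 2248, 2226, 2321 and 2215 without these rats in turn. Gzmb, Klrk1, Tbx21, Prf1 and Ifng remained called when any single rat was left out, at adjusted p-values of at most 0.0032, 0.0310, 0.0070, 0.0198 and 0.0030. Since 2 unidentified BD HVT/LPEEP rats were non-survivors, each of the 15 pairs of that group was left out as well. Klrk1 then missed the threshold in 3 pairs (rats 11 and 26, 11 and 22, 26 and 22), at adjusted p-values of up to 0.0933, and Prf1 in 1 (rats 11 and 24, adjusted p = 0.0523). Gzmb, Tbx21 and Ifng were called in all 15 pairs.

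The BD HVT/LPEEP rats differed among themselves by cell type. For each list, the mean of its genes after centring each gene on its mean over all rats was taken as a level. Rats 22 and 24 had the highest T cell levels of their group, at 0.58 and 0.53, and rats 26 and 28 the lowest, both at -0.18. On the NK and cytotoxic level, rat 11 was highest at 0.74 and rat 37 lowest at -0.09. The same rat 37 had the highest B cell level, at 0.61, and its Cd79b of 11.76 stood apart from the next value of 11.05. T cell, B cell and cytotoxic genes were thus not highest in the same rats. In NBD HVT/LPEEP the cytotoxic level was -0.53 to -0.17, below all BD HVT/LPEEP rats, while the T cell level was -0.45 to 0.35 and the B cell level -0.63 to 0.55, overlapping with BD. The cytotoxic list holds 6 genes called between these groups, so its separation is not independent of those calls. For 28 further NK and cytotoxic genes the levels overlapped, at -0.28 to 0.00 in NBD and -0.06 to 0.44 in BD. The level of 9 alveolar type 2 genes did not overlap, at -0.06 to 0.12 in NBD and -0.35 to -0.07 in BD.

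Genes of other blood cells were set beside these values. Of 12 genes that all leukocytes express, 2 were higher in BD under HVT/LPEEP, Ptprc (CD45) by 0.56 (adjusted p = 0.0123) and Cd53 by 0.42 (adjusted p = 0.012), and the median difference was 0.12. The mean level of this list was -0.30 to 0.30 in NBD HVT/LPEEP and -0.12 to 0.28 in BD HVT/LPEEP. Ptprc was 11.54 to 12.39 in NBD HVT/LPEEP and 12.32 to 12.54 in BD HVT/LPEEP. It was just as high in NBD LVT/OLPEEP, at 12.20 to 12.61. Of 19 neutrophil genes 3 were higher, S100a8, S100a9 and Ncf1, with a median of 0.33 and levels of -0.67 to 0.44 in NBD and -0.06 to 0.61 in BD. Of 15 macrophage and monocyte genes 3 were lower, Csf1r, Mrc1 and Pparg, with a median of -0.18 and levels of -0.10 to 0.45 in NBD and -0.37 to 0.22 in BD. Of 6 platelet genes 1 was higher (Pf4, 0.41), of 9 alveolar type 2 genes 4 were lower, of 8 endothelial genes 1 was lower (Vwf, -0.48), and no gene passed of 10 mast cell, 12 skeletal muscle and 4 erythroid genes. Several of these calls rested on single rats. Csf1r missed the threshold without any of NBD HVT/LPEEP rats 12, 13, 33 and 34 and BD HVT/LPEEP rats 11, 22, 26 and 28 (adjusted p up to 0.101). Mrc1 did so without any of NBD rats 19, 33 and 34 and BD rats 11, 26 and 37 (up to 0.0658), and Pparg without any of NBD rats 12, 13, 19 and 33 and BD rats 22, 24 and 26 (up to 0.0836). S100a8 was lost without NBD rat 33 or 34 or BD rat 22 (up to 0.0683), and Pf4 without NBD rat 19, 33 or 34 or BD rat 22 or 26 (up to 0.0688). Csf1r and Pparg were also lost without moderation and with array weights. The part of these cells in the lymphocyte values was not tested.

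**Figure D3:**
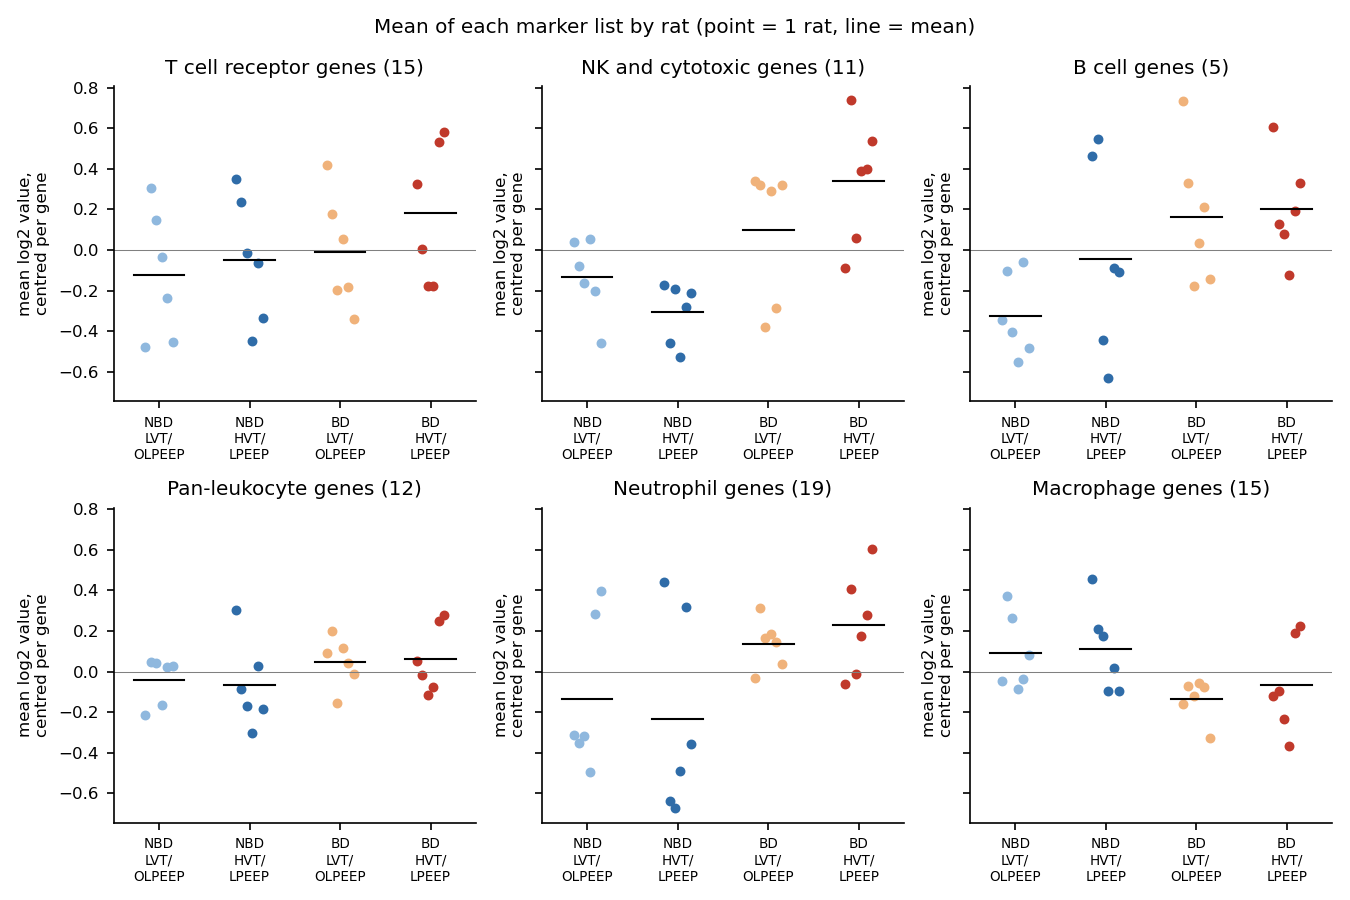
Mean log2 value of 6 gene lists in each rat, after centring each gene on its mean over the 24 rats. Points are rats and lines are means of 6 rats. The NK and cytotoxic level of every BD HVT/LPEEP rat (-0.09 to 0.74) lies above that of every NBD HVT/LPEEP rat (-0.53 to -0.17), while the other 5 lists shown overlap. That list includes the 6 genes called between these groups, and the level of 28 further NK and cytotoxic genes, not shown, overlaps.

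Further genes of the same cells, outside the 34, were read in the same comparison. Of 26 other T cell genes 6 were higher and 0 lower in BD under HVT/LPEEP, with a median of 0.24. The interleukin 2 receptor alpha chain Il2ra, made by activated and regulatory T cells, was 8.55 to 9.16 (median 8.89) in NBD HVT/LPEEP and 9.37 to 10.03 (median 9.60) in BD HVT/LPEEP, and BD was higher by 0.79 (SE 0.11, adjusted p = 9.76e-05). Cd69, an early activation marker, was higher by 1.00 (SE 0.18, adjusted p = 0.000637), and the adaptor proteins Fyb and Lcp2 by 0.81 and 0.38. Fyb was 9.87 to 10.96 in NBD HVT/LPEEP and 10.83 to 11.75 in BD HVT/LPEEP. In NBD LVT/OLPEEP it was 10.78 to 11.26, within reach of the BD HVT/LPEEP values. Of 28 other NK and cytotoxic genes 4 were higher, led by the chemokine Xcl1, which is made by NK and CD8 T cells. One gene of this list, Fcgr3a, is also in the neutrophil list. Xcl1 was 8.45 to 8.69 (median 8.63) in NBD and 9.32 to 10.17 (median 9.79) in BD, with a difference of 1.14 (SE 0.15, adjusted p = 3.88e-05). The NK receptors Klri1 and Cd244 were higher by 0.71 and 0.73, and the kinase Txk by 0.44. Of 25 other B and plasma cell genes 3 were higher, Cd40 (1.05), Irf8 (0.69) and Irf4 (0.48), which dendritic cells and macrophages express too. The plasma cell gene Igj differed by -0.37 (SE 0.26) and was not called. Of 7 genes of naive and recirculating lymphocytes 1 was lower, S1pr1 by -0.65 (SE 0.14, adjusted p = 0.00402), a receptor that endothelium also carries, and Ccr7 differed by 0.21 (SE 0.14). Cd244 missed the threshold without any of NBD HVT/LPEEP rats 12 and 34 and BD HVT/LPEEP rats 11, 22 and 26 (adjusted p up to 0.0917), Txk without NBD rat 19 or BD rat 11 (up to 0.0551), and Irf4 without NBD rat 19 (0.0537).

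The next comparison asked what HVT/LPEEP did in BD rats compared to LVT/OLPEEP. It shares the BD HVT/LPEEP rats with the first comparison. Ifng was higher, and no other lymphocyte transcript was called: 1 of 34 higher and 0 lower, against 2.85% and 2.82% of all features. Ifng was 7.54 to 7.76 (median 7.69) in BD LVT/OLPEEP and 7.97 to 8.77 (median 8.10) in BD HVT/LPEEP. The groups did not overlap and differed by 0.60 (SE 0.12, 1.51-fold, adjusted p = 0.00623). Klrk1 differed by 0.79 (SE 0.29) with an adjusted p of 0.115, and for Gzmb the difference was 0.65 (SE 0.24) with an adjusted p of 0.11. Gzmb was 10.72 to 11.64 (median 11.12) in BD LVT/OLPEEP, so that only 3 of 6 BD HVT/LPEEP rats lay above that group. Without BD HVT/LPEEP rat 37 both genes passed, and the count was 3, while the calls over all features rose from 1091 to 1315. Prf1 and Tbx21 differed by 0.23 (SE 0.17) and 0.12 (SE 0.17), with intervals of -0.12 to 0.58 and -0.23 to 0.47. The median difference was 0.22 for T cell genes, 0.19 for NK and cytotoxic genes and -0.01 for B cell genes, beside -0.01 for all features. Before adjustment 4 of 34 had a p under 0.05 (Cd28, Ifng, Gzmb and Klrk1), as did 21.0% of all features. Leukocyte, neutrophil and macrophage genes had medians of 0.03, 0.05 and 0.06, with 0 genes called. Of 6 platelet genes 1 was higher (Pf4, 0.43), and of 9 alveolar type 2 genes 3 were lower. Pf4 was lost without any of BD HVT/LPEEP rats 11, 22, 24 and 26 and BD LVT/OLPEEP rats 7, 9, 16 and 20 (adjusted p up to 0.0906).

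Outside the 34, Cd69 was 8.86 to 9.63 (median 9.22) in BD LVT/OLPEEP and 9.61 to 10.79 (median 10.43) in BD HVT/LPEEP. Only the lowest HVT/LPEEP rat reached the other group, and the difference was 1.11 (SE 0.18, adjusted p = 0.00162). Il2ra differed by 0.79 (SE 0.11, adjusted p = 0.000746) without overlap, and Tnfrsf4 (OX40, induced on activated T cells) by 0.41 (SE 0.12, adjusted p = 0.0373). Thus 3 of 26 other T cell genes were higher, while 0 of 28 other NK and cytotoxic genes and 2 of 25 other B cell genes (Cd40 and Irf4) were. Xcl1, at 8.91 to 9.89 in BD LVT/OLPEEP, differed by 0.44 (SE 0.15, adjusted p = 0.0813). Tnfrsf4 missed the threshold without any of BD HVT/LPEEP rats 22 and 24 and BD LVT/OLPEEP rats 7, 9, 16 and 18 (adjusted p up to 0.0861), and Cd40 without BD HVT/LPEEP rat 11 (0.0505).

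Chemokines and cytokines that attract or sustain lymphocytes were read in both comparisons. Of 16 such genes, 5 were higher with brain damage under HVT/LPEEP, 3 were higher with the HVT/LPEEP setting in BD, and 0 were lower in either comparison. Cxcl9, Cxcl10 and Cxcl11, ligands of the receptor CXCR3 that are induced by interferon gamma, differed by 1.39, 1.59 and 2.45 between BD and NBD (adjusted p = 0.0177, 0.0254 and 0.0058). Between ventilation settings in BD they differed by 1.86, 1.09 and 2.66 (adjusted p = 0.00727, 0.175 and 0.0092). The 3 ligands were 10.09 to 12.39, 11.71 to 14.03 and 9.95 to 13.18 in BD HVT/LPEEP. In NBD LVT/OLPEEP they were 9.78 to 12.04, 11.06 to 13.86 and 8.57 to 12.31, overlapping with that group. Of the 16 genes, 0 were called for brain damage under LVT/OLPEEP or for ventilation in NBD. There Cxcl9 had the lowest differences of the list, at -1.32 and -0.84. Cxcl16, the ligand of Cxcr6, was higher by 0.46 (SE 0.11, adjusted p = 0.0203) under HVT/LPEEP in BD. Between BD and NBD, Cxcl10 missed the threshold without any of NBD HVT/LPEEP rats 19 and 34 and BD HVT/LPEEP rats 11 and 26 (adjusted p up to 0.0689), and when 2 BD HVT/LPEEP rats were left out it did so in 10 of 15 pairs, while Cxcl9 did so in 7 pairs and Cxcl11 in 1. Between settings in BD, Cxcl9 was lost in 2 pairs and Cxcl11 in 4, and Cxcl16 was lost without BD LVT/OLPEEP rat 20 (0.0525). Il15, which sustains NK and memory CD8 T cells, differed by 0.36 (SE 0.35, adjusted p = 0.558) between BD and NBD and by 0.10 (SE 0.35) between settings.

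**Figure D4:**
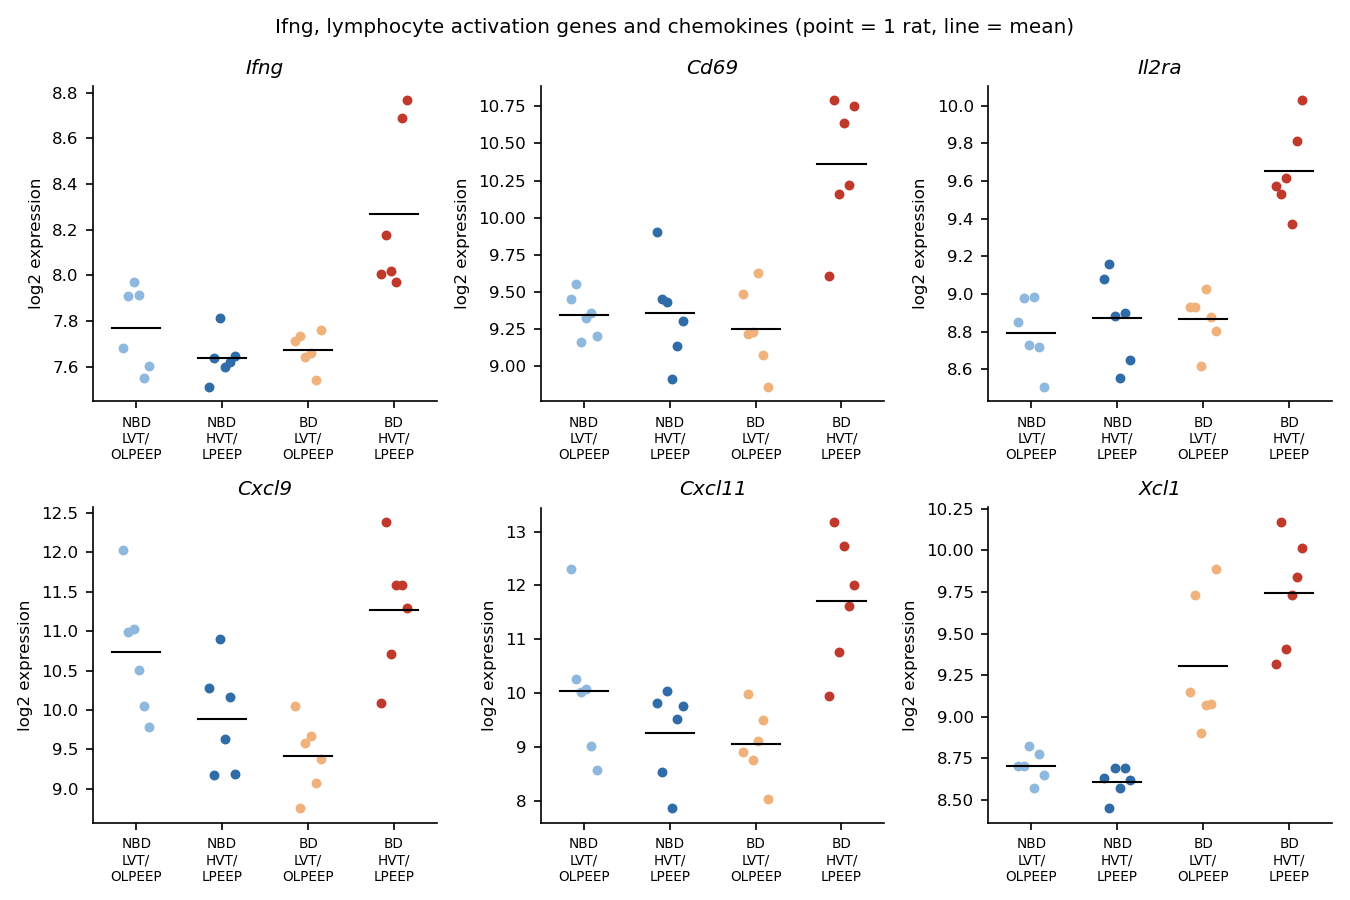
Log2 expression in each rat of Ifng, the activation genes Cd69 and Il2ra, and the chemokines Cxcl9, Cxcl11 and Xcl1. Points are rats, lines are means of 6 rats, and vertical axes differ between panels and do not start at 0. For Il2ra every BD HVT/LPEEP rat (9.37 to 10.03) lies above all 18 other rats, and for Xcl1 both BD groups (8.91 to 10.17) lie above both NBD groups (8.45 to 8.82).

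Under LVT/OLPEEP, 0 of 34 lymphocyte transcripts were called between BD and NBD, and 0.208% of all features were higher and 0.530% lower by limma's test. Before adjustment 6 of 34 had a p under 0.05, as did 11.6% of all features: Tbx21, Prf1, Cd79a, Cd79b and Ms4a1 with a higher mean in BD and Il7r with a lower one. Cd79b was 10.13 to 10.74 (median 10.35) in NBD and 10.65 to 11.92 (median 11.16) in BD. The difference was 0.82 (SE 0.25) with an adjusted p of 0.147. For Cd79a the difference was 0.67 (SE 0.22, adjusted p = 0.188), and for Ms4a1 it was 0.63 (SE 0.23, adjusted p = 0.259). The median over the 5 B cell genes was 0.63, while it was 0.27 for NK and cytotoxic genes and 0.07 for T cell genes. The other blood cell lists were read beside these. All 6 platelet genes had a higher mean in BD and an unadjusted p under 0.05, with a median of 0.45 and 0 called, and the platelet level was -0.51 to -0.32 in NBD and -0.23 to 0.57 in BD. Medians were 0.20 for neutrophil, -0.25 for macrophage and 0.04 for pan-leukocyte genes, with 0 called, and of 8 endothelial genes 1 was higher (Egfl7, 0.64, adjusted p = 0.0153). Their part in the lymphocyte values was not tested. Tbx21 ran from 9.04 to 9.53 in NBD and from 9.37 to 10.31 in BD and differed by 0.52 (SE 0.17, adjusted p = 0.182). Il7r spread widely in BD LVT/OLPEEP, from 8.36 to 10.34 (median 9.36), against 9.86 to 10.62 (median 10.06) in NBD, a difference of -0.74 (SE 0.26, adjusted p = 0.233). Outside the 34, Xcl1 was 8.57 to 8.82 in NBD and 8.91 to 9.89 in BD, without overlap, and differed by 0.60 (SE 0.15, adjusted p = 0.0637). Klrk1 and Ifng differed by -0.05 (SE 0.29) and -0.10 (SE 0.12). With array weights, which give less weight to arrays that vary more, Cd79a was called and the count was 1. Over all features the calls then rose from 142 to 608.

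The cytotoxic level of the BD LVT/OLPEEP rats fell into a low pair and 4 higher rats. Rats 16 and 9 were at -0.38 and -0.28, and the others were between 0.29 and 0.34. Gzma shows the gap, at 9.92 and 10.42 in rats 16 and 9 and at 11.20 to 11.45 in the others. Rat 16 is the one with skeletal muscle RNA, and rat 9 had a skeletal muscle level of -0.16. Without rat 16 the count under LVT/OLPEEP remained 0.

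In NBD rats, HVT/LPEEP and LVT/OLPEEP were compared to see what ventilation did without brain damage. By limma's test 0 of 34 lymphocyte transcripts and 0% of all features were called in either direction. Before adjustment only Il7r had a p under 0.05, as did 16.3% of all features. It was 9.86 to 10.62 (median 10.06) in LVT/OLPEEP and 9.07 to 9.82 (median 9.66) in HVT/LPEEP. The groups did not overlap, and the difference was -0.54 (SE 0.26, adjusted p = 0.305). The mean was lower in HVT/LPEEP for 10 of 11 NK and cytotoxic genes, with a median of -0.15, and higher for 5 of 5 B cell genes, with a median of 0.24. None of these differences passed the test. In NBD LVT/OLPEEP rat 30 had 11.52 for Gzmb where the median was 10.51, and 11.11 for Klrk1 where the median was 10.06.

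**Figure D5:**
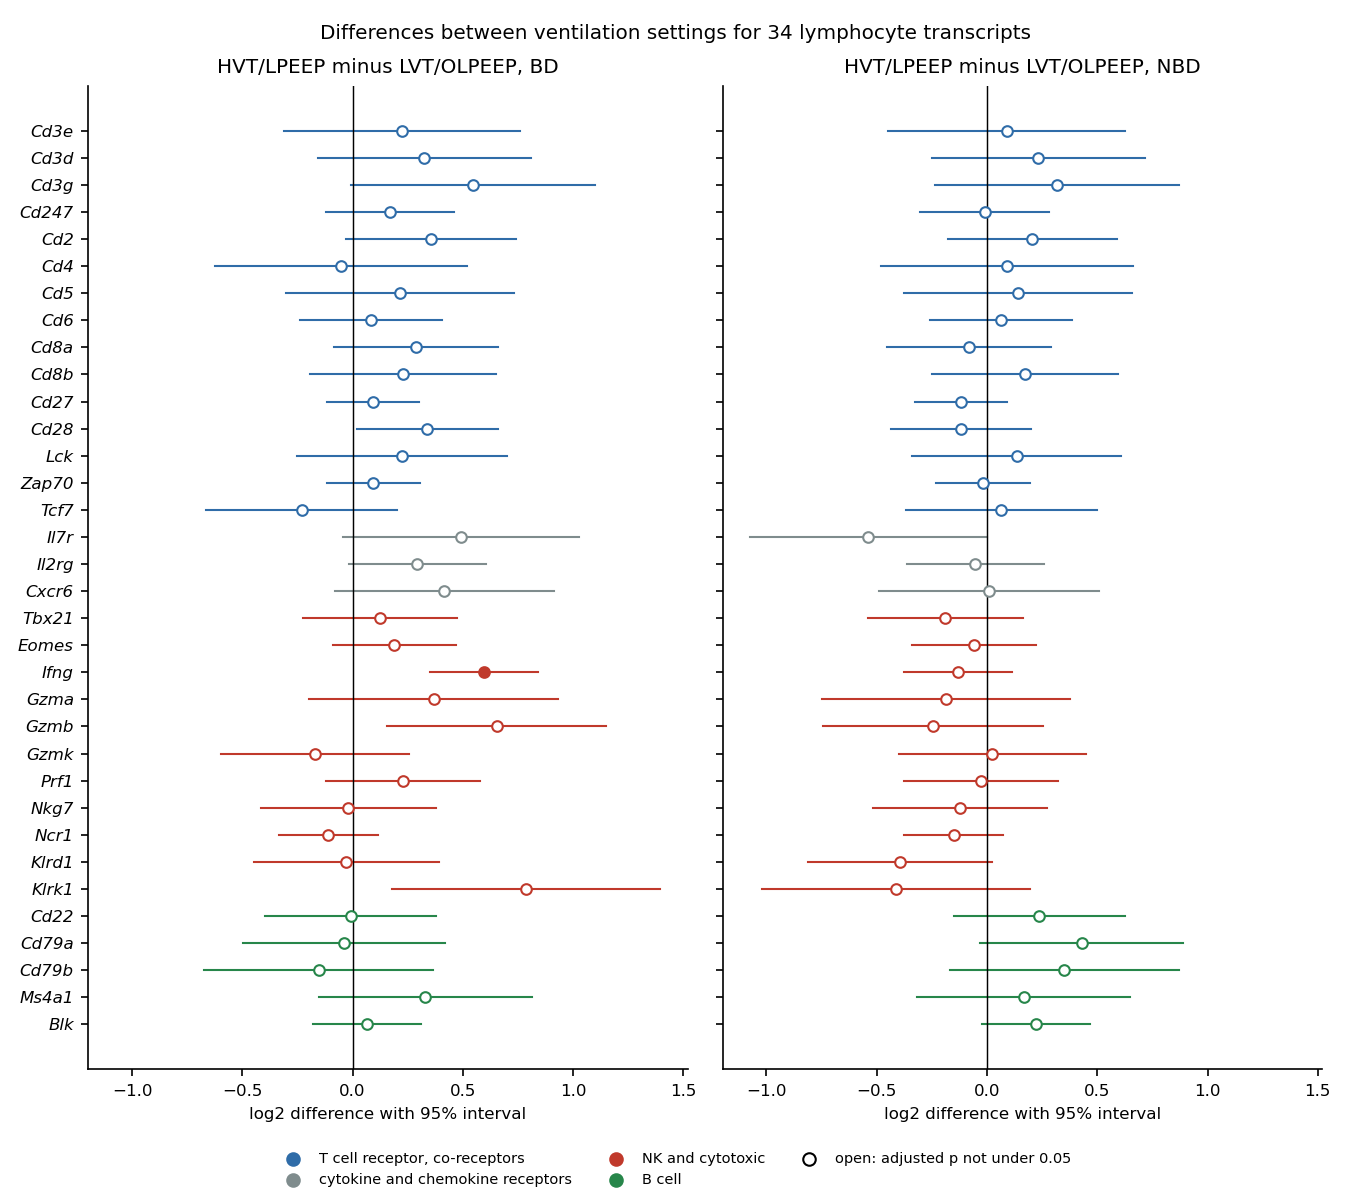
Difference in log2 expression between HVT/LPEEP and LVT/OLPEEP for the 34 lymphocyte transcripts in BD rats (left) and NBD rats (right), with 95% intervals from the limma fit and 6 rats per group. Ifng, at 0.60 in BD, is the only filled point, which marks an adjusted p under 0.05.

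Whether the brain damage difference itself depended on ventilation was tested as the interaction, the difference under HVT/LPEEP minus that under LVT/OLPEEP. By limma's test 0 of 34 lymphocyte transcripts passed, beside 0% of all features in the higher and 0.0104% in the lower direction. Ifng came closest, at 0.73 (SE 0.17, adjusted p = 0.100), followed by Klrk1 at 1.20 (SE 0.41, adjusted p = 0.218), Il7r at 1.03 (SE 0.37, adjusted p = 0.229) and Gzmb at 0.90 (SE 0.34, adjusted p = 0.251). Before adjustment these and Cd28, 5 of 34, had a p under 0.05, as did 13.7% of all features. Outside the 34, the interaction was 0.72 (SE 0.16) with an adjusted p of 0.0943 for Il2ra and 1.10 (SE 0.25) with an adjusted p of 0.100 for Cd69. Of the 16 chemokines and cytokines above, 8 had a p under 0.05 before adjustment and 0 were called. Among them Cxcl11 had the highest interaction, at 3.45. Without BD HVT/LPEEP rat 37 Ifng was called and the count was 1, while the calls over all features rose from 2 to 134. Ifng was also called without rats 37 and 28, 37 and 26, or 37 and 24. In the last of these pairs Gzmb was called too, and the calls over all features were 266. In the other pairs 0 of 34 were called. For Tbx21, Prf1 and Ms4a1, also among the 9 called under HVT/LPEEP, the interaction was 0.31 (SE 0.24), 0.26 (SE 0.24) and 0.16 (SE 0.33), with intervals of -0.18 to 0.81, -0.24 to 0.75 and -0.52 to 0.85. With all 24 rats in the fit, the brain damage difference was thus not shown to depend on ventilation for any of the 9 transcripts.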

How the data were processed

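Lung RNA of 24 rats was hybridised to Affymetrix arrays, 1 per rat. The sample labels give each rat a group and an animal number of its own. The values deposited by the authors are on the log2 scale. For background correction and the summarisation of probes, the sources used here give no method. All 24 arrays held the same values in sorted order, which is what quantile normalization gives, and the table was used unchanged. Signal over background and detection calls were not used here. Of 19239 features, 16592 had 1 gene symbol, 2647 had none and 0 had several in the platform annotation, which can be old. The identifiers of 16453 named features, and of 33 of the 34 lymphocyte features (not Cd79a), were in the current RefSeq gene table.

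The lmFit and eBayes functions of limma 3.58.1 (R 4.3.3) fitted 1 mean per group to every feature, with 20 residual degrees of freedom. There were 5 contrasts, and p-values were adjusted over all features. The study itself used a mixed-model ANOVA with the Holm correction, whose terms the sources used here do not give. The fit was checked on simulated data. The transcripts and gene lists were chosen with earlier results of these data known. Full values are given for transcripts called in any contrast and for 1 or 2 of each role with the smallest p where none was called. Other transcripts are given by their difference. Some of these, such as Gzmk, Ncr1 and Cd8b, are given with a range too, which this rule did not pick. Of each other list, up to 4 genes with the smallest p and called genes that move against the list are named, with Cxcl9, Cxcl10, Cxcl11 and Il15 always named; a few further genes (Gzmc, Gzmf, Gzmn, Igj, Ccr7) were named after their values were seen. Alternatives covered scaling, a filter on the 40% dimmest features, the arrays in the fit, moderation, array weights, no or Holm's adjustment, a threshold of 1.5-fold, the animal number in the model, and leaving out each rat, each of 15 pairs of BD HVT/LPEEP rats, or the 2 rats that stand apart.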

Additional observations from a re-analysis of the deposited data

Results flagged for a closer look

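In 5 of 136 groups of 6 rats (34 transcripts in 4 groups), the highest or lowest rat stood apart from the others by Dixon's criterion. Chance flags about 1 in 20 groups. Cd27 was 9.57 in BD LVT/OLPEEP rat 20, where the next value was 9.24. Zap70 was 9.55 in NBD HVT/LPEEP rat 12, one of the rats with a low correlation to its group, and the next value was 9.19. Tcf7, a transcription factor of naive and memory T cells, was 10.59 in NBD HVT/LPEEP rat 34 against 10.06 in the next rat. Il7r was 9.07 in NBD HVT/LPEEP rat 13, the lowest of its group, and the next lowest was 9.57. Cd79b was 11.76 in BD HVT/LPEEP rat 37 against 11.05.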

How the results depend on the processing

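With the Holm correction 0 of 34 transcripts passed in any comparison, so that the counts of 9 for brain damage under HVT/LPEEP and 1 for ventilation in BD both became 0. Over all features 180 and 30 passed in these comparisons. Without adjustment the counts were 14 for brain damage under HVT/LPEEP, 6 under LVT/OLPEEP, 4 for ventilation in BD, 1 for ventilation in NBD and 5 for the interaction. For ventilation in BD the count was 0 without the 40% dimmest features, a filter that leaves out Ifng itself, and 2 with animal number as a covariate, which added Il2rg. Under LVT/OLPEEP array weights gave 1 (Cd79a). Where Il2rg and Cd79a were gained, the calls over all features rose as well, from 1091 to 2122 and from 142 to 608. The cause of these changes was not tested. The other alternatives gave 8 to 10 for brain damage under HVT/LPEEP, and none of the called differences followed across the alternatives (the 9 and 1 above and called genes of the other lists that the report names) changed direction. Directions of uncalled transcripts were not followed. Leaving out 1 rat, or 2 of the BD HVT/LPEEP rats, gave 4 to 11 for brain damage under HVT/LPEEP, 1 to 3 for ventilation in BD, 0 to 2 for the interaction, and 0 for the others. Over all features the calls for brain damage under HVT/LPEEP moved too, from 2771 with every rat to 2215 where the count was 11. They were 1848 and 1583 where the count was 4. Without NBD HVT/LPEEP rat 12 and BD LVT/OLPEEP rat 16 together, the counts were 10 under HVT/LPEEP and 1 for ventilation in BD, beside 3174 and 1423 of all features. Of the 9 transcripts, Cd8a, Cd27, Gzma and Ms4a1 each missed the threshold without at least 1 single rat, with adjusted p-values of up to 0.0582, 0.0646, 0.0659 and 0.0674. No paired analysis was possible because the animal numbers are not shared between groups. Dim features such as Ifng, Ncr1 and Cd28 had no detection call, and 6 rats per group limit every count.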
